A study of Mus musculus with 6 samples.

Results

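Itga2b, Itgb3, Gp1ba, Gp1bb, Gp5, Gp6, Gp9, Cd9 and Treml1 encode receptors and glycoproteins of the megakaryocyte and platelet surface, several of which are also found on platelet-biased hematopoietic stem cells (HSCs). These 9 genes were taken by symbol from a table of 34573 genes, and all 9 were listed in it. RNA sequencing had been performed on HSCs sorted as lineage-negative CD48-CD150+ cells from the bone marrow of young adult mice backcrossed to C57BL/6, in 3 libraries from Rpl22-/- mice (labelled Rpl22 KO) and 3 from Rpl22+/+ mice (labelled Rpl22 WT). The ribosomal protein gene Rpl22 was lost in the whole animal, so the marrow around these cells lacked it as well. The labels give this gate without Sca-1 or c-Kit, whereas the study's text defines its HSCs as CD48-CD150+ cells that also express both. The labels do not say whether a library came from 1 mouse or from a pool, and p-values therefore measure only the spread between these samples.

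These proteins form the machinery by which a platelet is recruited to a damaged vessel wall. GPIbα, GPIbβ, GPIX and GPV assemble into the receptor that captures von Willebrand factor, GPVI binds collagen and signals through the Fc receptor γ chain, and integrin αIIbβ3, built from the products of Itga2b and Itgb3, binds fibrinogen and links platelets to each other. CD9 is a tetraspanin that sits beside integrins in the membrane, and TLT-1, the product of Treml1, is stored in platelet α-granules and reaches the surface upon activation. Most are late products of megakaryocyte maturation, whereas CD41 (the product of Itga2b) and CD9 are also known on HSCs.

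In the GRCm38 assembly, the 9 genes lie on 5 chromosomes. Gp1ba (chr11:70639122-70642036), Itga2b (chr11:102453297-102470122) and Itgb3 (chr11:104608000-104670476) share chromosome 11. Gp1bb (chr16:18620317-18622403) and Gp5 (chr16:30307685-30310779) share chromosome 16, and Gp9 (chr6:87778072-87779768) and Cd9 (chr6:125460266-125494791) share chromosome 6. Gp6 (chr7:4363965-4397744) and Treml1 (chr17:48359916-48367176) stand alone. Members of 1 receptor complex therefore do not sit in 1 cluster, and Gp1ba, Gp1bb, Gp9 and Gp5, whose products form a single complex, lie on 3 chromosomes.

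Promoters are shown because these genes were higher together, and GATA and ETS family factors are textbook regulators of the lineage. RefSeq promoters (GRCm38.p6) were found for 8 of the 9 genes, and the 250 bases before the start were searched on both strands for the short GATA motif GATAA. A match on the opposite strand of the gene reads TTATC. The ETS motif searched was GGAAGT, and its opposite strand match reads ACTTCC. No matches overlap in the promoters below. The last 150 bases before the start are printed on the strand of the gene for the 4 genes that held a match and were tested for expression, with matches in capitals.
Gp1ba: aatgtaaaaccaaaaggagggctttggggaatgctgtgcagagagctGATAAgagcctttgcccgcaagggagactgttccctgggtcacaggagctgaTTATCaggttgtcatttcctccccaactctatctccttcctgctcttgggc
Gp5: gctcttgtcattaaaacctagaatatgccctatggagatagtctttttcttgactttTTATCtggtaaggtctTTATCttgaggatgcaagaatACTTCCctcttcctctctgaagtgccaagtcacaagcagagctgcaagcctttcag
Gp9: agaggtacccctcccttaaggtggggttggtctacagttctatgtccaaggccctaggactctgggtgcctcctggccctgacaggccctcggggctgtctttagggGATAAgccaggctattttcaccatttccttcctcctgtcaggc
Itga2b: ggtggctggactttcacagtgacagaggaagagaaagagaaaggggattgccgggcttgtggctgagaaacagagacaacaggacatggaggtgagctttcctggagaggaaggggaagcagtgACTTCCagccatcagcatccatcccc

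These runs occupy chr11:70638972-70639121 (+ strand) for Gp1ba, chr16:30310782-30310931 (- strand) for Gp5, chr6:87777920-87778069 (+ strand) for Gp9 and chr11:102469884-102470033 (- strand) for Itga2b. The Itga2b run lies inside the gene bounds given above, because the RefSeq start used for promoters differs from the start in that annotation. GATAA was found in 4 of the 8 promoters (Gp1ba, Gp5, Gp6 and Gp9), against 22.6% of 32851 promoters. GGAAGT was found in 3 (Itga2b, Gp5 and, 240 bases before the start, Gp9), against 19.7%, and Gp5 and Gp9 held both, as did 4.23% of all promoters. The promoters of Gp1bb, Cd9 and Treml1 held neither run of letters. These counts describe letters in a window and say nothing of binding.

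Reads assigned to genes numbered 9321123 to 13385850 per library, the lowest in WT replicate 3. Rpl22 itself had 449 to 546 reads in the KO libraries and 5031 to 7001 in the WT libraries (log2 fold change -3.75 ± 0.11 SE, edgeR adjusted p = 2.97e-12), as the labels state. Of 14004 genes tested by edgeR, 780 had an adjusted p below 0.05, of which 459 were higher in KO (58.8% of the calls, or 43.4% with library size alone as the scaling) and 321 lower, and the median log2 fold change was -0.01. The 12 HSC markers all had reads, with sums of 2778 to 3073 CPM (counts scaled to a common library size with TMM factors) in KO and 2993 to 3032 in WT libraries.

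All 8 surface genes with reads rose in Rpl22-/- HSCs, and Gp6, which encodes the collagen receptor GPVI, had 0 reads in all 6 libraries. For comparison, 3.28% of all genes tested were called higher and 2.29% lower. The increases ran from 1.37-fold for Gp9 to 1.77-fold for Gp1bb, with a median log2 fold change of 0.72 over the 8 genes. For each of the 8, every KO library lay above every WT library, as it did for 13.3% of all genes tested. In these bulk samples, more cells of a type and more RNA per cell cannot be told apart.

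**Figure D1:**
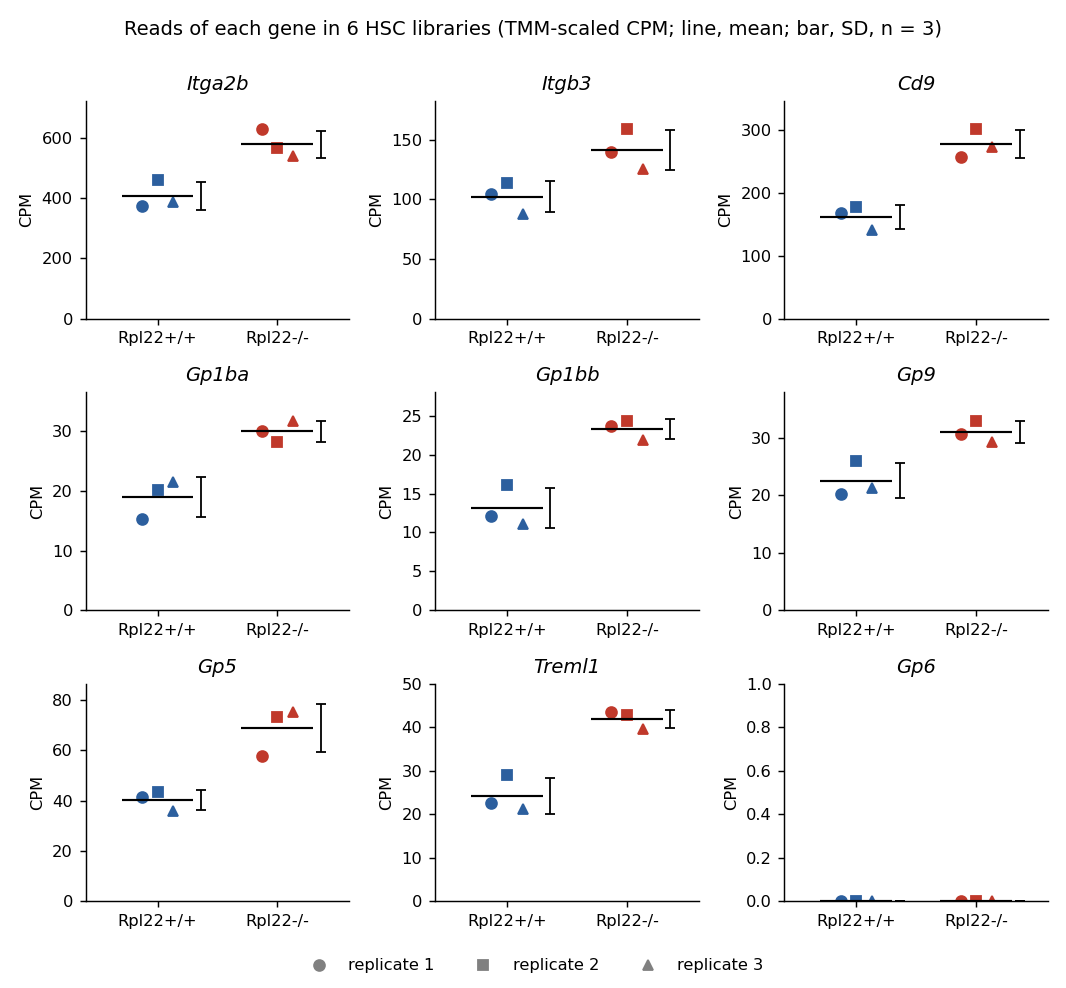
CPM of each of the 9 genes in each library (vertical axes, starting at 0; each gene has its own scale), with symbols for the replicate number, a line at the mean and a bar of 1 SD (n = 3). Blue points (Rpl22+/+) lie below all red points (Rpl22-/-) for 8 genes, and Gp6 is at 0 throughout.

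Both chains of the fibrinogen receptor rose. Itga2b, the α chain, stood at 629, 566 and 542 CPM in KO replicates 1 to 3 and at 374, 461 and 386 CPM in WT replicates 1 to 3. The lowest KO library was 1.18 times the highest WT library. The mean was 579 ± 45.2 CPM (SD, n = 3) in KO and 407 ± 47.3 CPM in WT, a log2 fold change of 0.51 ± 0.10 (SE, edgeR adjusted p = 0.0115). Itgb3, the β chain, which also pairs with the αV chain in other cells, had 140, 159 and 125 CPM in KO and 105, 114 and 88.0 CPM in WT libraries. Its libraries were separated by the narrowest margin of the 8, with the lowest KO library 1.10 times the highest WT library. Its log2 fold change was 0.46 ± 0.11 (SE, edgeR adjusted p = 0.0216). Both calls rested on individual WT libraries. Without WT replicate 1 the edgeR adjusted p was 0.0792 for both genes, and without WT replicate 3 it was 0.0599 for Itga2b and 0.102 for Itgb3, while Itgb3 also lost its call without KO replicate 2 (edgeR adjusted p = 0.0722).

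The 2 chains kept a like proportion. Per kilobase of exon, Itga2b exceeded Itgb3 by a ratio of 4.47 ± 0.54 (SD, n = 3) in KO and 4.33 ± 0.45 in WT libraries, and the libraries overlapped. The alternative partner Itgav stood at 29.4 ± 1.93 CPM in KO and 38.3 ± 3.77 CPM in WT (log2 fold change -0.38 ± 0.11 SE, edgeR adjusted p = 0.0639), with every KO library below every WT library. Per kilobase, Itgav was 0.116 ± 0.020 (SD) of Itgb3 in KO and 0.210 ± 0.047 in WT, again without overlap. Itgb1, the common partner of many α chains, had 347 ± 21.4 CPM in KO and 366 ± 10.3 CPM in WT (edgeR adjusted p = 0.629).

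All 4 genes of the von Willebrand factor receptor rose. Gp1ba, which encodes the ligand-binding chain, had 30.0, 28.3 and 31.8 CPM in KO and 15.3, 20.2 and 21.5 CPM in WT libraries. It rested on 340 to 419 reads in KO and 199 to 251 reads in WT libraries, and its log2 fold change was 0.67 ± 0.14 (SE, edgeR adjusted p = 0.0144). WT replicate 1 was the lowest by a clear margin, and the call was lost without it (edgeR adjusted p = 0.0772) and without KO replicate 3 (edgeR adjusted p = 0.0750).

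Gp1bb, the chain disulfide-linked to GPIbα, showed the largest increase of the 9 genes and also rested on the fewest reads among those detected. It had 23.7, 24.4 and 21.9 CPM in KO (288 to 304 reads) and 12.1, 16.1 and 11.1 CPM in WT libraries (107 to 200 reads). The KO libraries lay close together, and the highest WT library was replicate 2. The log2 fold change was 0.82 ± 0.15 (SE, edgeR adjusted p = 0.00792). Exons of Sept5, on the same strand, cover 91.1% of the Gp1bb exon in the annotation used here. Whether reads in the shared part were counted, and for which gene, depends on the authors' annotation and counting settings. Sept5 itself had 34 to 69 reads per library and a log2 fold change of -0.37 ± 0.26 (SE, edgeR adjusted p = 0.426).

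Gp5, whose product associates with the complex and is cleaved by thrombin, had 57.8, 73.1 and 75.1 CPM in KO and 41.3, 43.5 and 35.9 CPM in WT libraries. KO replicate 1 was the lowest of its group and still lay 1.33 times above the highest WT library. The log2 fold change was 0.77 ± 0.11 (SE, edgeR adjusted p = 0.00237). Gp9, which encodes the small chain needed for surface display of the complex, had 30.7, 33.0 and 29.3 CPM in KO and 20.3, 26.0 and 21.3 CPM in WT libraries. It had the smallest increase, with a log2 fold change of 0.46 ± 0.13 (SE, edgeR adjusted p = 0.0477), close to the threshold. The Gp9 call held in 8 of 16 alternatives and was lost in 5 of the 6 fits that left out 1 library and when trends on gene length and GC content were removed (log2 fold change 0.28, edgeR adjusted p = 0.246).

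Within the complex, proportions were compared per kilobase of exon. Ratios to Gp1bb also depend on whether and how reads in the exon shared with Sept5 were counted. Gp9 was 3.15 ± 0.071 (SD, n = 3) times Gp1bb in KO and 4.11 ± 0.37 times in WT, and the KO libraries all lay below the WT libraries. The ratio of Gp1ba to Gp1bb was 0.994 ± 0.11 in KO and 1.14 ± 0.30 in WT, and that of Gp9 to Gp5 was 1.14 ± 0.18 and 1.40 ± 0.15, both with overlapping libraries. Of 8 ratios computed among the surface genes and Itgav, the 2 without overlap were Gp9 over Gp1bb and Itgav over Itgb3. With 3 libraries against 3, an exact permutation test of a single ratio cannot give a two-sided p below 0.1.

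Gp6 was accounted for by its counts alone. A count of 0 allows up to 3 reads, which is 0.228 to 0.312 CPM in these libraries, for counting error only. Fcer1g, the signalling chain of GPVI, was read at 10.2 ± 2.24 CPM (SD, n = 3) in KO and 11.7 ± 2.01 CPM in WT (edgeR adjusted p = 0.557). RNA of Gp6 was therefore not detected at this depth, whereas each of the other surface genes was read in every library.

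Cd9 and Treml1 both rose and kept their calls without any single library. Cd9 had 258, 302 and 274 CPM in KO and 169, 178 and 141 CPM in WT libraries. The lowest KO library was 1.45 times the highest WT library, the widest margin of the 8 genes. The mean was 278 ± 22.3 CPM (SD, n = 3) in KO and 162 ± 19.1 CPM in WT, with a log2 fold change of 0.77 ± 0.10 (SE, edgeR adjusted p = 0.000872), and Cd9 ranked 15 of the 14004 genes by p. Treml1 had 43.5, 42.8 and 39.5 CPM in KO and 22.6, 29.0 and 21.2 CPM in WT libraries. The KO libraries lay within 4 CPM of one another, and the log2 fold change was 0.79 ± 0.13 (SE, edgeR adjusted p = 0.00441). Together with Gp1bb and Gp5, these genes were called in all 16 alternatives.

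**Figure D2:**
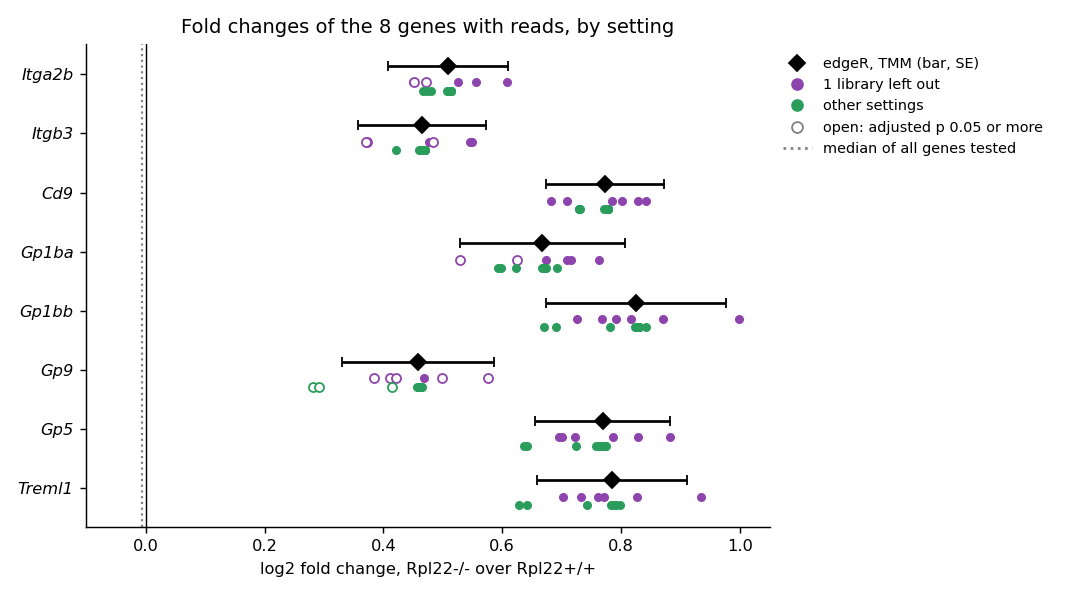
Log2 fold change of the 8 genes with reads (horizontal axis, Rpl22-/- over Rpl22+/+), as a black diamond with a bar of 1 SE for the reported fit, purple points for fits without 1 library and green points for the 10 other settings. All points lie above 0 and above the median of all genes (dotted line); open points, with an adjusted p of 0.05 or more, occur for Itga2b, Itgb3, Gp1ba and Gp9.

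The WT libraries varied together across these genes. WT replicate 2 was the highest WT library for 7 of the 8 genes tested, the exception being Gp1ba, and WT replicate 3 was the lowest for 5. Averaged over the 8 genes as mean-centred log2 CPM, the KO replicates stood at 0.31, 0.39 and 0.29 and the WT replicates at -0.40, -0.14 and -0.44. Summed over the 9 genes, the KO libraries reached 1138 to 1228 CPM and the WT libraries 726 to 887 CPM. Calls fell to 4 of 8 without WT replicate 1, when 0.953% of all genes were called higher, and to 5 of 8 without WT replicate 3, when 1.03% were. All 6 fits without 1 library kept a positive log2 fold change for each of the 8 genes.

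Levels per exon length separated the genes into tiers. In WT libraries, Cd9 (79.4 ± 9.33 CPM per kilobase, SD, n = 3) and Itga2b (74.6 ± 8.68) were highest and did not differ beyond their spread. Gp9 followed at 25.6 ± 3.46. Gp5 (18.3 ± 1.78), Itgb3 (17.3 ± 2.21) and Treml1 (17.3 ± 2.95) overlapped one another, and Gp1ba (6.99 ± 1.21) and Gp1bb (6.28 ± 1.25) formed the lowest tier. In KO libraries, Cd9 reached 136 ± 10.9 and stood apart from Itga2b at 106 ± 8.29, while Gp9 (35.2 ± 2.17), Gp5 (31.3 ± 4.30) and Treml1 (29.9 ± 1.52) lay close together. The ratio of Cd9 to Itga2b within each library still overlapped between genotypes, at 1.29 ± 0.17 in KO and 1.07 ± 0.12 in WT. The lengths are of merged exons in the annotation, so the order between genes depends on which exons these cells use. The level of Gp1bb also depends on whether reads shared with Sept5, whose exons cover 91.1% of its exon, were counted.

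**Figure D3:**
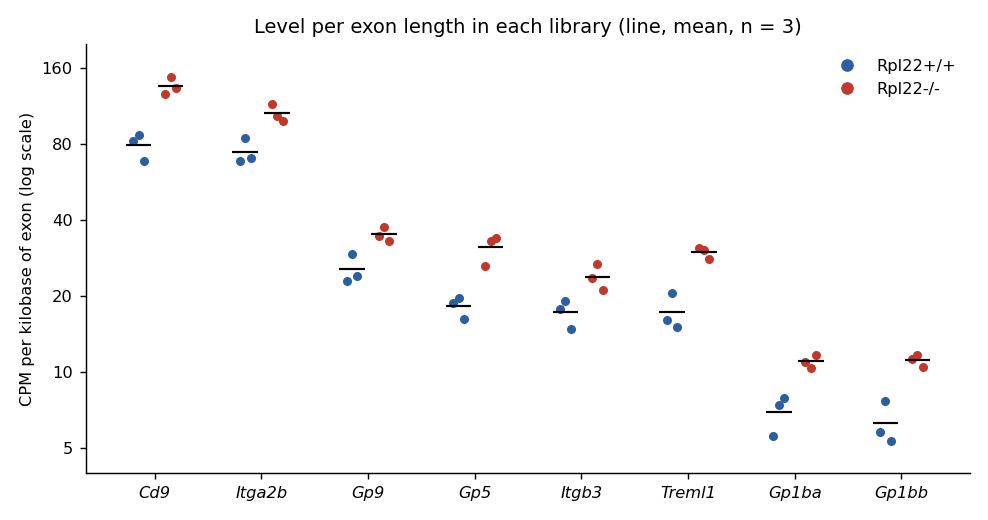
CPM per kilobase of merged exon (vertical axis, log scale) for the 8 genes with reads, ordered by their mean in Rpl22+/+ HSCs, with 1 point per library and a line at the mean. Cd9 and Itga2b lie highest and Gp1ba and Gp1bb lowest in both genotypes.

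The ligands of these receptors were examined next. Of 12 ligand genes, 5 were tested, and Thbs1 (thrombospondin) rose, from 8.60 ± 2.13 CPM (SD, n = 3) in WT to 15.9 ± 2.25 CPM in KO (log2 fold change 0.87 ± 0.19 SE, edgeR adjusted p = 0.0157). Without KO replicate 3, WT replicate 2 or WT replicate 3, Thbs1 lost its call, with an edgeR adjusted p of 0.0742 to 0.0920. Fibrinogen genes Fga, Fgb and Fgg had 0 reads in all libraries. Vwf, encoding von Willebrand factor and known as a marker of platelet-biased HSCs, stood at 315, 272 and 230 CPM in KO and 191, 256 and 199 CPM in WT libraries. These libraries overlapped, and Vwf did not pass the test (log2 fold change 0.34 ± 0.12 SE, edgeR adjusted p = 0.116).

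Among other platelet surface receptors, 4 of 28 tested genes rose and 0 fell, and the median log2 fold change was 0.07. The genes that rose were Selp (P-selectin, 0.81 ± 0.13 SE, edgeR adjusted p = 0.00465), F2r (the thrombin receptor PAR1, 0.49 ± 0.09, edgeR adjusted p = 0.00798), Ptger3 (a prostaglandin E2 receptor, 0.50 ± 0.10, edgeR adjusted p = 0.0150) and F2rl2 (the thrombin cofactor receptor PAR3, 0.88 ± 0.20, edgeR adjusted p = 0.0197). Of these, Selp held in all 16 alternatives, with a log2 fold change of 0.70 to 0.94. Each of the other 3 lost its call without at least 1 library.

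Of the 33 genes listed for signalling below these receptors, 0 passed the test in either direction with edgeR, at a median log2 fold change of 0.02. At an unadjusted p below 0.05 there were 4, and DESeq2 called 2 and limma-voom 0. The smallest p-values belonged to Ilk, the integrin-linked kinase (0.28 ± 0.08 SE, edgeR adjusted p = 0.0557), and Gnai2, a G protein α subunit (0.27 ± 0.09, edgeR adjusted p = 0.102). Of granule and cytoskeletal genes of the platelet, 6 of 22 rose and 0 fell, with a median of 0.29. They were F5 (coagulation factor V, 0.75 ± 0.10 SE, edgeR adjusted p = 0.00117), Fyb (an adaptor, 0.57 ± 0.10, edgeR adjusted p = 0.00514), Serpine2 (a protease inhibitor, 1.30 ± 0.24, edgeR adjusted p = 0.00753), Pf4 (platelet factor 4, 0.70 ± 0.20, edgeR adjusted p = 0.0484), Selp and Thbs1. F5, Fyb and Serpine2 held in all 16 alternatives, whereas Pf4 overlapped between genotypes and lost its call in 8 of 16. The adaptor gene Fyb was counted in this list only and not among the 33 signalling genes.

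Of 23 transcription regulators of the lineage, 3 rose and 0 fell, with a median log2 fold change of 0.12. Srf (0.45 ± 0.09 SE, edgeR adjusted p = 0.0106), Gata2 (0.39 ± 0.09, edgeR adjusted p = 0.0190) and Zfpm1, the GATA cofactor FOG1 (0.42 ± 0.10, edgeR adjusted p = 0.0213), passed, each losing its call without at least 2 single libraries in turn. With length and GC trends removed, Srf (0.31, edgeR adjusted p = 0.0566) and Zfpm1 (0.28, edgeR adjusted p = 0.133) lost their calls as well. Gata1, the main erythro-megakaryocytic GATA factor, had an edgeR adjusted p of 0.0743 with every KO library above every WT library (0.29 ± 0.09 SE), and Fli1, an ETS factor, had one of 0.0524. Neither passed the test.

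The other tetraspanins and integrins did not follow the surface genes as groups. Of 19 other tetraspanins, 0 passed in either direction with edgeR, DESeq2 or limma-voom (5 had an unadjusted edgeR p below 0.05), and the median was -0.11, the nearest to the threshold being Cd37 (0.28 ± 0.09 SE, edgeR adjusted p = 0.0754) and Tspan13 (-0.26 ± 0.09, edgeR adjusted p = 0.0818). Of 18 other integrin genes, Itgb2 rose (0.41 ± 0.11 SE, edgeR adjusted p = 0.0491) with a call lost in 8 of 16 alternatives, and the median was -0.06. The TREM list, which also held the signalling adaptor gene Tyrobp, had 2 other genes tested, both with a positive log2 fold change. Treml2 (0.16 ± 0.09 SE, edgeR adjusted p = 0.356) and Tyrobp (0.56 ± 0.37, edgeR adjusted p = 0.401) did not pass. Among 6 genes known from platelet-biased HSCs outside the 9, Selp alone passed.

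**Figure D4:**
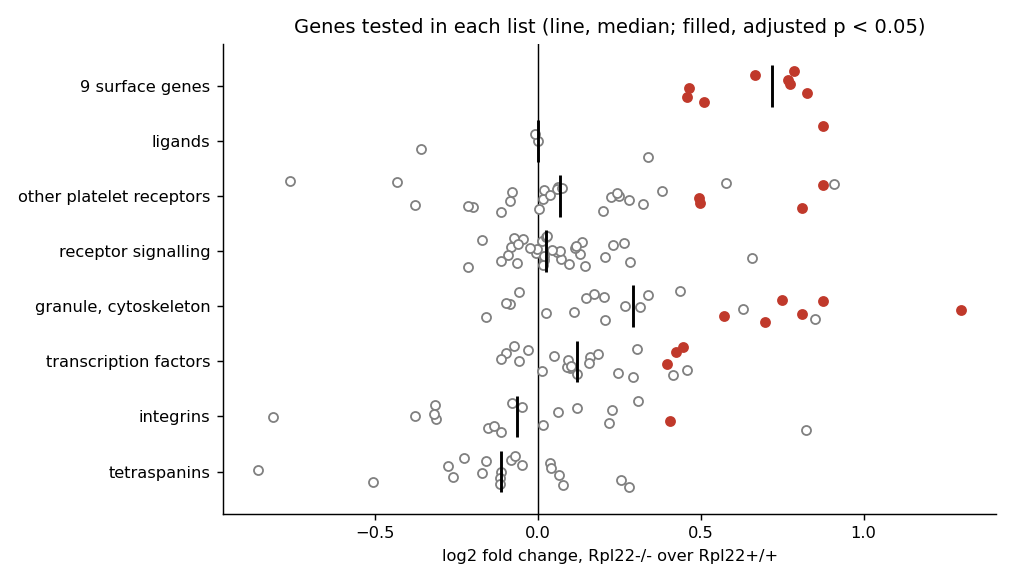
Log2 fold change (horizontal axis) of every gene tested in the 9 surface genes and 7 related lists, with 1 point per gene, filled red where the edgeR adjusted p was below 0.05, and a line at the list median. The 8 tested surface genes are all filled at 0.46 to 0.82, whereas the medians of the other lists lie between -0.11 and 0.29.

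Marker lists of other cells were summed per library, since a sort can hold more than 1 cell type. Other megakaryocyte markers, 11 of 12 listed and some shared with the platelet lists above, summed to 710 to 827 CPM in KO and 469 to 628 CPM in WT libraries, without overlap, and none was at 0 in all libraries. Of the 10 tested, 4 rose (F5, F2rl2, Pf4 and Nrgn, the last at 0.61 ± 0.09 SE, edgeR adjusted p = 0.00230) and the median was 0.62. DESeq2 called 2 of the 10, F2rl2 (DESeq2 adjusted p = 0.0730) and Pf4 (DESeq2 adjusted p = 0.204) being lost. P2ry12, a receptor of mature platelets, had 1 to 4 reads per library. Whether these markers share a source with the 9 genes was not tested.

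Of the 7 erythroid markers tested, 2 fell and 0 rose by edgeR, Car1 (-1.37 ± 0.33 SE, edgeR adjusted p = 0.0246) and Ermap (-1.60 ± 0.42, edgeR adjusted p = 0.0359). The Car1 libraries overlapped between genotypes, and DESeq2 called 2 of the 7 and limma-voom 1. Sums over the erythroid list were 988 to 1028 CPM in KO and 858 to 910 CPM in WT. Car2 made up most of each sum, at 971 ± 24.1 CPM (SD, n = 3) in KO and 841 ± 21.3 CPM in WT. It did not pass the test (edgeR adjusted p = 0.173). The 11 neutrophil markers had a median log2 fold change of 1.43, above that of the surface genes, and 9 of the 11 had a positive value. By edgeR 2 of them rose, and DESeq2 and limma-voom each called 1. Those called by edgeR were Ctsg (2.85 ± 0.70 SE, edgeR adjusted p = 0.0282) and Camp (2.43 ± 0.60, edgeR adjusted p = 0.0291). Mpo (myeloperoxidase, 2.32 ± 0.71 SE, edgeR adjusted p = 0.0642) and Elane (neutrophil elastase, 2.24 ± 0.77, edgeR adjusted p = 0.0970) did not pass, and both were highest in KO replicate 2, at 101.4 and 20.2 CPM. Sums over the list overlapped, at 220 to 357 CPM in KO, highest in replicate 2, and 193 to 245 CPM in WT. Most of each sum came from Csf3r (112 ± 3.13 CPM, SD, n = 3, in KO and 122 ± 7.78 CPM in WT) and Prtn3 (67.0 ± 10.4 and 63.4 ± 9.50 CPM), neither of which passed the test. Without KO replicate 2, 6 of the 8 surface genes were called, when 1.68% of all genes were called higher. The part of these markers in the result was not tested.

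**Figure D5:**
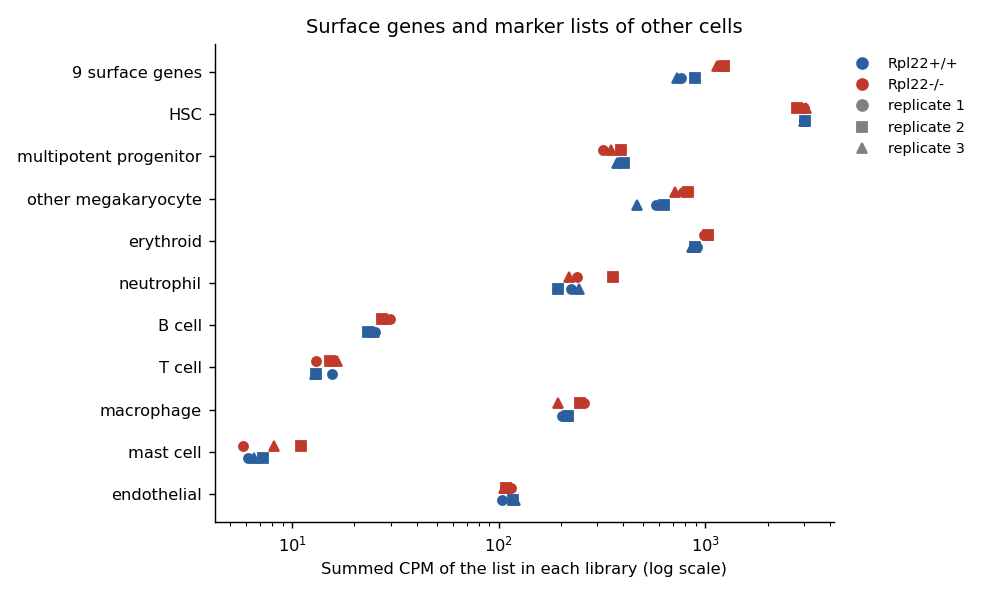
Summed CPM (horizontal axis, log scale) of the 9 surface genes and of 10 marker lists in each library, with symbols for the replicate number. Red (Rpl22-/-) and blue (Rpl22+/+) points are separate for the surface genes and the other megakaryocyte, erythroid and B cell markers and overlap for the HSC, multipotent progenitor, neutrophil, T cell, macrophage, mast cell and endothelial lists.

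Among the 12 HSC markers, Fgd5 fell (-0.41 ± 0.10 SE, edgeR adjusted p = 0.0308) and the median was -0.05. At an unadjusted edgeR p below 0.05 there were 4, of which Slamf1 was higher in KO and the others, Fgd5 included, were lower. Slamf1, which encodes the CD150 used for the sort, stood at 63.5, 45.4 and 59.5 CPM in KO and 40.6, 47.0 and 49.1 CPM in WT libraries, with overlapping libraries (log2 fold change 0.30 ± 0.12 SE, edgeR adjusted p = 0.154). It passed without KO replicate 2 (0.44, edgeR adjusted p = 0.0448) and with length and GC trends removed (0.44, edgeR adjusted p = 0.0495). Of 3 multipotent progenitor markers tested, 0 passed with edgeR, DESeq2 or limma-voom and 1 had an unadjusted p below 0.05, Flt3 at -0.36 ± 0.11 (SE, edgeR adjusted p = 0.0675). The lists for B cells (29.6 CPM at most in any library), T cells (16.5), macrophages (257), mast cells (10.99) and endothelial cells (120) had 0 genes called by edgeR, DESeq2 or limma-voom, with 1 gene (Cd79b of B cells, edgeR adjusted p = 0.166) at an unadjusted p below 0.05.

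The genes whose pattern over the 6 libraries lay nearest to the mean profile of the surface genes were found among 10496 candidates by the root mean square difference of mean-centred log2 CPM. They were Dad1 (0.081), Tgfb1 (0.089), Anapc13 (0.090), AC153580.1 (0.094) and Alg14 (0.098). Dad1 encodes a subunit of the oligosaccharyltransferase and had 92.4 ± 6.97 CPM (SD, n = 3) in KO and 61.5 ± 3.37 CPM in WT libraries. Tgfb1 encodes a cytokine made by megakaryocytes and many other cells and had 278, 356 and 309 CPM in KO and 187, 215 and 192 CPM in WT libraries. Since these genes were picked for their likeness, their levels are given as a description.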

How the data were processed

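Polyadenylated RNA from 6 sorted HSC samples, 3 per genotype, had been sequenced. Per the labels and the study's methods, the authors checked reads with FastQC, aligned them to mm10 with TopHat2 (2.1.1 in the submitters' processing notes) and deposited raw HTSeq counts per gene. The strand setting and annotation are not given in the sources used here. HTSeq's 5 lines of unassigned reads, 58.6% to 60.9% of each library, were left out, and 0 per-sample columns were unused.

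In edgeR 4.0.16 (R 4.3.3), filterByExpr (minimum count 10) kept 14004 of 34573 genes, libraries were scaled by TMM, and genotypes were compared by the quasi-likelihood test, its p-values adjusted over all 14004 genes by the Benjamini-Hochberg method. CPM used TMM-scaled libraries, and lengths came from an annotation of GRCm38, which matched 29093 symbols directly and 1841 through an older one. Scripts were tested on simulated data. The surface genes and the lists were chosen with earlier results of these data known.

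Genes named are Rpl22, the 9 surface genes, partners (Vwf, Fcer1g, Itgav, Itgb1, Slamf1), genes overlapping them, 5 genes of like pattern with average log2 CPM of at least 3, and, per list, genes passing the test or otherwise up to 2 of smallest p. Fli1, Gata1, P2ry12, Mpo, Elane, Csf3r, Prtn3, Car2 and the fibrinogen genes were added after their values were seen. Another gene that the rule names is not reported here. Alternatives were RLE, upper-quartile and no scaling, DESeq2 1.42.0, limma-voom (limma 3.58.1), 2 other filters, leaving out each library, a replicate block and removal of length and GC trends.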

Additional observations from a re-analysis of the deposited data

How the results depend on the processing

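The 8 surface genes with reads kept a positive log2 fold change in all 16 alternatives, with medians of 0.61 to 0.77, and 4 to 8 of them were called. Gp1bb, Gp5, Cd9 and Treml1 passed in all 16, Itga2b and Gp1ba in 14, Itgb3 in 13 and Gp9 in 8. Leaving out 1 library gave 4 (without WT replicate 1) to 8 of 8 surface genes called, 127 to 1720 genes called over all genes (780 with all libraries), and 5 to 26 of the 142 other pathway and family genes called (13 with all libraries). The highest of these counts came without KO replicate 1 and the lowest over all genes without KO replicate 3. With no filter on low counts, 1422 genes were called over all genes and 23 in the other lists, and with length and GC trends removed, 499 were called over all genes. The cause was not tested.

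Replicate numbers are shared by the genotypes, but nothing in the labels ties them to a litter or day, and same-numbered libraries deviated together with correlations of -0.10, 0.05 and 0.04 over genes, so the numbers were not treated as pairs and not every library correlated best with its own number. With the replicate number as a block, 904 genes and 8 of 8 surface genes were called, with a median of 0.72 over the surface genes, -3.75 for Rpl22 and 15 of the other pathway and family genes. With the block and the trends removed, these were 530, 7, 0.62, -3.80 and 13. Precision rests on 3 libraries per genotype, and Gp1ba, Gp1bb and Gp9 had 107 to 419 reads per library.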
